A study of Mus musculus with 26 samples.

Results

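The expressed Zfp genes of mouse ES cells were taken as every row of the expression table whose symbol is Zfp followed by digits, with or without a closing letter, and whose mean over the 5 RNA libraries was at least 1 FPKM (fragments scaled for transcript length and library size). *Zfp57* itself, *Zfp445*, *Zfp352*, *Zfp264* and *Zfp932* were left out by name. This left 275 genes of the 24409 in the table. The pattern matched 360 symbols, 4 of the names left out were among them, and 81 further symbols lay under the limit, 6 of them at 0 in every library. The mean level chose these genes, so their levels are a description. At the edge of the limit, *Zfp551* (0.81 to 1.13 FPKM over the libraries), *Zfp93* (0.86 to 1.23) and *Zfp189* (0.89 to 1.25) were just inside it, and *Zfp707* (0.84 to 1.37), *Zfp449* (0.86 to 1.08) and *Zfp524* (0.85 to 1.11) just outside.

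The study asked where ZFP57 binds in ES cells and what its loss does to chromatin and transcription. The RNA came from male C57BL/6J ES cells, with 3 WT libraries and 2 libraries of zygotic ZFP57 KO cells, in which coding exons 4 and 5 of *Zfp57* are disrupted. All cells were derived from E2.5 embryos, kept in 2i and LIF and used by passage 15, and ribosomal RNA was depleted before sequencing with paired reads of 150 bp. ZFP57 ChIP-seq used 3 WT and 2 KO samples of the same strain and reads of 100 bp, and its outcome is a list of 1423 peaks called in at least 2 WT replicates, without scores.

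Most Zfp genes encode proteins with zinc fingers of the C2H2 type. In these a pair of cysteines and a pair of histidines hold a zinc ion, and the residues between them touch DNA or RNA. Many also carry a KRAB box, which binds KAP1 (TRIM28) and, through it, the H3K9 methyltransferase SETDB1 and HP1 proteins, and these KRAB zinc finger proteins silence transposable elements in early embryos and ES cells. ZFP57 is one of them, and recognises the methylated hexanucleotide TGCCGC at imprinting control regions. KRAB zinc finger genes arose by tandem duplication and lie in clusters, whereas other Zfp genes act in transcription, RNA processing or translation.

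The ZFP57 peaks touched 15 of the 275 genes, and in 8 of these a peak lay on coding sequence. The sequences of these sites are shown first. Each of the 21 peaks held the hexanucleotide at least once, but its share over all 1423 peaks was not counted here. In the coding peaks it mostly lay on the antisense strand, where it reads GCGGCA on the coding strand. The following windows give the coding strand, with the hexanucleotide in capitals and 18 bases on each side, at 1 site for each of 7 genes (GRCm38 or mm10, positions counted from 1, RefSeq transcripts). In each of them the capitals begin at the second base of a cysteine codon and run through a glycine codon into a lysine codon, inside a finger.
Zfp11, chr5:129657264-129657305, minus strand, finger 12 of 21: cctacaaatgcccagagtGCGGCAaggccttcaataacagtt
Zfp13, chr17:23576341-23576382, minus strand, finger 6 of 8: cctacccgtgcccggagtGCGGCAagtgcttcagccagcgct
Zfp27, chr7:29894543-29894584, minus strand, finger 16 of 21: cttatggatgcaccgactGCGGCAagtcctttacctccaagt
Zfp180, chr7:24105107-24105148, plus strand, finger 1 of 12: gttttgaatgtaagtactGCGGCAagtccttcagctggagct
Zfp600, chr4:146196604-146196645, plus strand, finger 14 of 17: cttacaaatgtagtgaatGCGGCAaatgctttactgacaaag
Zfp668, chr7:127867862-127867903, minus strand, finger 5 of 16: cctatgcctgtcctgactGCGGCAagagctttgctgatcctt
Zfp787, chr7:6132848-6132889, minus strand, finger 3 of 7: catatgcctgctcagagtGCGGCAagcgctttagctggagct

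The peak on *Zfp787* was the narrowest of the coding peaks, 188 bp at chr7:6132771-6132958, and its whole sequence on the coding strand shows the hexanucleotide once in each of 2 successive fingers.
Zfp787 peak: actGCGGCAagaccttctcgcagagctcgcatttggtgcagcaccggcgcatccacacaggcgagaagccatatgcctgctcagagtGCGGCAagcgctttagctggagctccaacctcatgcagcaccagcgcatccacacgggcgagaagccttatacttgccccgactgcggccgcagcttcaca

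The 9 coding peaks held the hexanucleotide 18 times, 16 times antisense and 2 times sense. Of these, 12 lay on cysteine-glycine-lysine codons, in 7 of the 8 genes, and 14 on a cysteine-glycine pair. *Zfp11* had 5 in a peak of 2002 bp that covered most of its coding sequence, 3 of them on cysteine-glycine-lysine codons (in fingers 2, 12 and 15). *Zfp13* had 2 on such codons, in fingers 6 and 8, and another outside the finger patterns. In *Zfp668* they lay in fingers 5 and 6. *Zfp462* differed from the other 7, since both of its coding peaks, in exon 3, held the hexanucleotide on the sense strand and off these codons. One of its sites lay in a run of codons outside the finger patterns and the other at finger 10.
Zfp462, chr4:55009696-55009737, plus strand, exon 3: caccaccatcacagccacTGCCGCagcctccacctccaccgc
Zfp462, chr4:55010815-55010856, plus strand, exon 3: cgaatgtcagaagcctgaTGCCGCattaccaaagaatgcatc

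**Figure D1:**
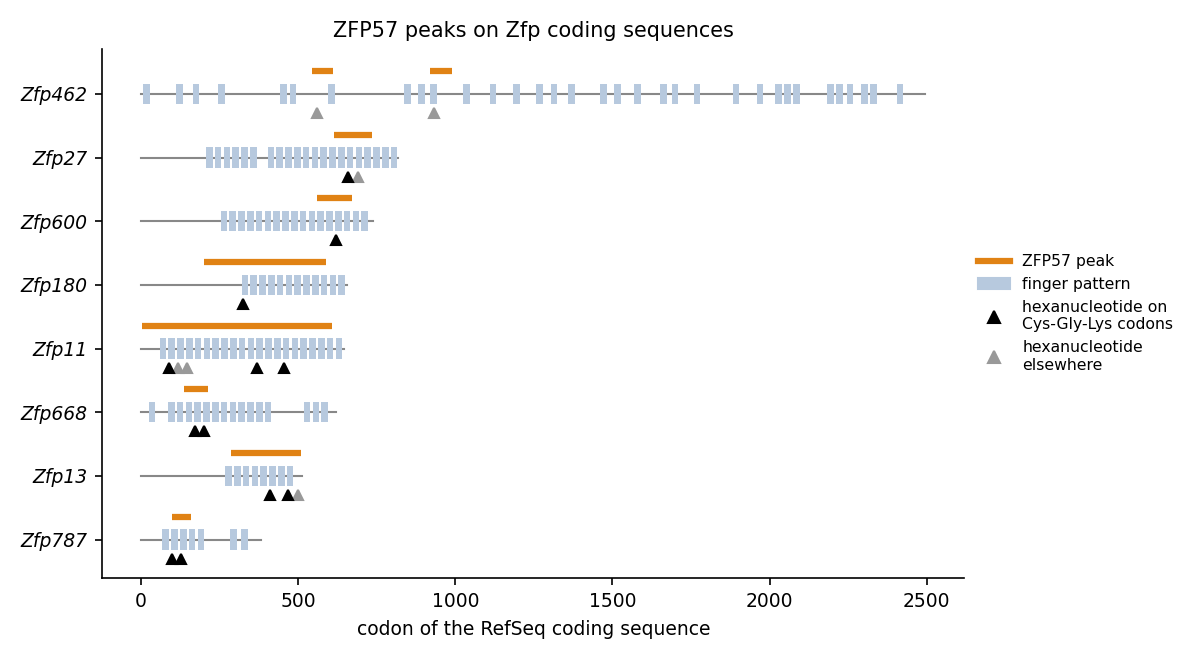
The coding sequences of the 8 Zfp genes with a ZFP57 peak on them are drawn as lines along the codons (x axis), with finger patterns as blue boxes, peaks as orange bars and the hexanucleotide as triangles. Black triangles mark the 12 sites on cysteine-glycine-lysine codons and grey triangles the other 6, and *Zfp11* has 5 in 1 peak.

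Among the 275 genes, 8 (2.91%) had a peak on coding sequence, beside 0.469% of the 12999 tested genes with a coding model and 0.468% of those that also reach 1 FPKM. The hexanucleotide by itself was common. It occurred in the coding sequence of 100 of the 275 genes, 201 times in all, and in 44.1% of the 9563 other expressed coding genes. On cysteine-glycine-lysine codons it occurred 57 times in the Zfp genes, in 39 of them. Of the 100 genes with the hexanucleotide, 92 had no peak on their coding sequence, among them *Zfp865* with 10 and *Zfp628* with 6 copies, the highest numbers of all. Neither was called between WT and KO (adjusted p = 0.494 and 0.0570), and both were named after these values were seen. Over their whole coding sequences the Zfp genes held 1741 cysteine-glycine-lysine triplets, and 3.27% of these carried the hexanucleotide, against 4.44% of the 1193 in the other expressed coding genes.

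The other peaks lay outside coding sequence. There were 8 in introns, 1 in the 3′ UTR of *Zfp180* and 3 within the RefSeq span of *Zfp109* and *Zfp936* but outside the transcript model used here. The genome's soft-masked (repeat) bases made up a median of 59.8% of these 12 peaks and 3.8% of the 9 coding peaks, where *Zfp600* was highest with 68.1%. Soft-masking does not name the repeat, and repeat families were not assigned here. Around the hexanucleotide, the peaks of 5 genes on 4 chromosomes nevertheless shared nearly the same 42 bases, here written in the direction that reads TGCCGC.
Zfp277, chr12:40409120-40409161, plus strand, intron 2: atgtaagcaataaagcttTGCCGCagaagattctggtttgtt
Zfp729a, chr13:67627254-67627295, plus strand, intron 1: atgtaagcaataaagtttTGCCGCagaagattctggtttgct
Zfp933, chr4:147833542-147833583, minus strand, intron 1: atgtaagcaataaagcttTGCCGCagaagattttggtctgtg
Zfp934, chr13:62551029-62551070, plus strand, intron 1: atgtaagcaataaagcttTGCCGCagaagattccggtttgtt
Zfp936, chr7:43149143-43149184, minus strand, outside the transcript model: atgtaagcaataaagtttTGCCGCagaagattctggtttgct
The windows of *Zfp729a* and *Zfp936* were identical over all 42 bases, those of *Zfp277* and *Zfp934* over 41 and those of *Zfp729a* and *Zfp933* over 37. The other *Zfp934* peak held a version with 32 of 42 bases in common with *Zfp729a*. By contrast, the intronic peak of *Zfp935* (chr13:62458012-62458053) and the intronic peak of *Zfp462* (chr4:54999739-54999780) had other surroundings.
Zfp935, minus strand, intron 1: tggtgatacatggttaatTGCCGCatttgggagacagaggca
Zfp462, plus strand, intron 1: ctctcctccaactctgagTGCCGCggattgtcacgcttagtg

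The 15 genes with a peak were 5.45% of the 275, beside 2.08% of all 14569 tested genes with a position and 2.2% of those at the limit. A peak within 20 kb of the gene was found for 33 (12%), beside 4.89% of all tested genes. The median span was 18207 bp for the Zfp genes and 19756 bp for all tested genes. A KRAB-like box was present in 8 of the 15. No promoter window (250 bases before to 50 after a start, in RefSeq's table for 234 of the genes) carried a peak, and of all 27025 genes with such a window, 19 did. The hexanucleotide itself occurred in 15.8% of the Zfp promoter windows and in 11.6% of all promoter windows. Of the 21 peaks, 18 were also in the list named for the hybrid lines. It is a subset of the C57BL/6J list whose origin is not stated.

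The check of the labels was *Zfp57*, which read 75.9, 72.3 and 70.6 FPKM in WT and 19.0 and 21.6 FPKM in KO. It was lower in both KO libraries than in any WT library, and the remaining reads were not assigned to exons here. The 8 ES cell markers summed to 707 to 720 FPKM in WT and 758 to 813 FPKM in KO, with 4 of them higher and 2 lower in KO, whereas the 5 fibroblast markers summed to at most 0.36 FPKM in any library. The primitive endoderm markers summed to 0.44 to 0.47 FPKM in WT and 0.67 to 1.16 in KO, the trophoblast markers to 0.45 to 0.82 and 2.34 to 2.55, the mesoderm markers to 0.58 to 0.87 and 0.98 to 1.35, and the neural markers to 2.72 to 3.12 and 1.93 to 2.11. Single genes carried these sums, since 1 of 4 primitive endoderm markers (*Sox7*), 1 of 4 trophoblast markers (*Eomes*) and 1 of 3 mesoderm markers (*T*) were called higher and none lower, and of 3 neural markers *Nes* was called lower and *Sox1* higher. Their part in the values below was not tested. Sequencing depth is not given with the FPKM, so that counting error is unknown, and in bulk RNA a smaller number of cells that express a gene cannot be told apart from less RNA per cell.

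The mean levels of the Zfp genes, which the limit bounds from below, ran from 1.01 to 76.9 FPKM with a median of 3.78 and quartiles of 2.08 and 7.88, beside a median of 6.91 FPKM for all genes tested that meet the limit, and 50 reached 10 FPKM and 13 reached 20 FPKM. Together they made up 0.851 to 0.912% of the summed FPKM of a library. The most abundant was *Zfp534*, at 73.9 to 77.3 FPKM in WT and at 82.9 and 75.3 FPKM in KO, although 43.8% of its 100-base words also occur in other genes and its level is uncertain for that reason. It was followed by *Zfp207*, *Zfp106*, *Zfp600* and *Zfp638*. A KRAB-like box was found in 160 of the genes and not in 115, and their median levels were 3.40 and 5.66 FPKM. Finger patterns numbered 12 at the median with a KRAB-like box and 7 without, and up to 36 in *Zfp142*, while 5 genes had no C2H2 pattern (*Zfp185*, *Zfp330*, *Zfp365*, *Zfp750* and *Zfp839*). 12 clusters of at least 5 genes with gaps of at most 500 kb held 109 of the genes, 93 of them with a KRAB-like box.

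Many of these genes differed between WT and KO, mostly by small amounts. Of the 275, 93 (33.8%) passed limma's test at an adjusted p under 0.05, 48 higher and 45 lower in KO. Of all 14617 genes tested, 41.1% passed (18.8% higher, 22.3% lower), and of those that meet the same limit of 1 FPKM, 44.7%. The share of Zfp genes called was thus below that of the table. Both KO libraries lay above all WT libraries in 92 Zfp genes and below them in 76. Together these were 61.1%, beside 63.4% of all genes tested (30.3% above and 33.1% below). All 93 called Zfp genes were among the 61.1%. The median log2 fold change of the Zfp genes was 0.02 and that of all genes tested -0.01. Fold changes are KO minus WT on the log2(FPKM + 0.1) scale, which understates the change of genes of low level. The called Zfp genes had a median size of 0.37, against 0.52 for all called genes, and 72 of the 93 were under 0.5 in size. A size of at least 1 was reached by 3 Zfp genes, *Zfp423*, *Zfp69* and *Zfp39*, beside 8.03% of all genes tested and 4.99% of those at the limit. *Zfp423* has a WT mean of 0.72 FPKM and *Zfp69* a KO mean of 0.565 FPKM, so each met the limit through the group in which it was high.

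**Figure D2:**
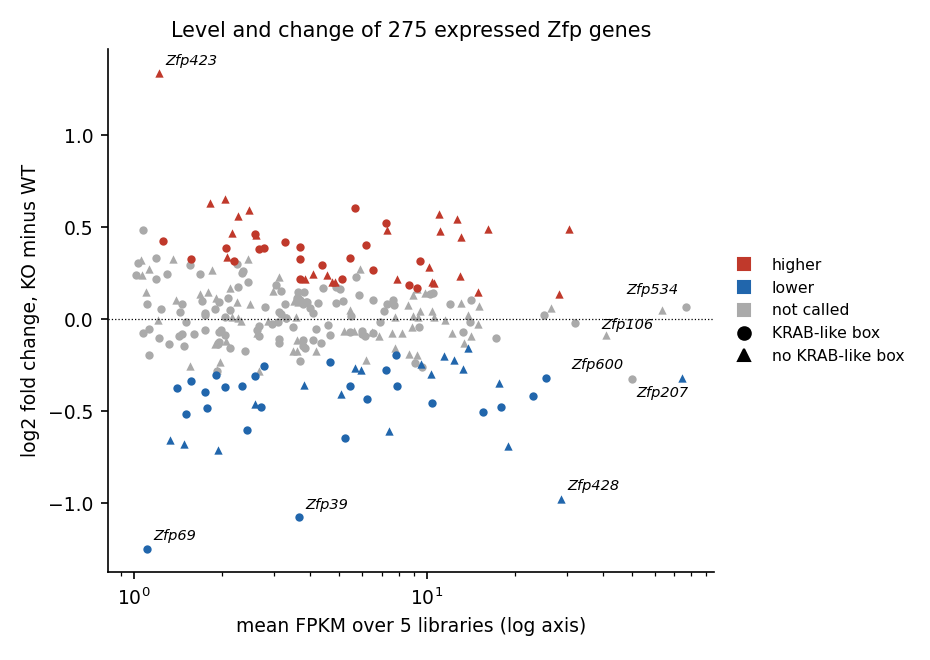
Each of the 275 Zfp genes is a point, with its mean FPKM over the 5 libraries on a log x axis and its log2 fold change (KO minus WT) on the y axis. Red and blue mark genes called higher (48) and lower (45), circles genes with and triangles genes without a KRAB-like box, and 3 genes (*Zfp423*, *Zfp69* and *Zfp39*) lie beyond 1 in size.

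With 3 against 2 libraries no exact permutation p can fall below 0.1, so the calls rest on limma's model across all genes. They weigh differences against the spread between these libraries. WT and KO cells were separate ES cell lines, and the part of line beside genotype was not tested. The number of calls depended on single libraries. It fell to 55 without the first, 52 without the second and 48 without the third WT library, and to 62 and 43 without the first and second KO library, where the lone KO library was assumed to vary like the others. The share of all genes called fell at the same time, to 28.0 to 32.7%. In all 5 of these fits, 32 Zfp genes (11.6%) were called with the same sign, beside 22.4% of all genes tested.

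Among the genes that rose, *Zfp423*, a multi-finger partner of SMAD and EBF proteins known from adipocyte and cerebellar development, had the largest change. The gene spans chr8:87661810-87962053 on the minus strand. It stood at 0.82, 0.70 and 0.64 FPKM in WT and at 1.85 and 2.09 FPKM in KO. Both KO libraries were above every WT library, and the log2 fold change was 1.34 ± 0.14 (SE, adjusted p = 0.00118). Its WT level is under 1 FPKM, so that it passed the limit through the KO libraries. The other 7 with the largest rises were much alike in size, from 0.54 to 0.66. *Zfp637* was at 1.78, 1.53 and 1.61 FPKM in WT and 2.73 and 2.55 in KO. *Zfp930*, with a KRAB-like box, was at 4.75, 4.62 and 4.68 FPKM in WT and 7.31 and 7.03 in KO (0.60 ± 0.06, adjusted p = 0.000787). *Zfp532*, which works with ZMYND8 in a chromatin-reading complex, was at 9.08, 9.35 and 9.0 FPKM in WT and 13.96 and 13.37 in KO (0.57 ± 0.05, adjusted p = 0.000593). The groups of these genes did not overlap, as in all 93 called Zfp genes. *Zfp655* was the most abundant of the 8, at 9.93 to 11.20 FPKM in WT and at 15.06 and 16.09 FPKM in KO. *Zfp800*, *Zfp623* and *Zfp746* (PARIS, a parkin target that represses PGC-1α) had KO libraries further apart. *Zfp746*, at 1.86, 1.67 and 2.14 FPKM in WT and 2.57 and 3.09 in KO, was no longer called without the first or second WT library (adjusted p = 0.0591 and 0.0585) or without the second KO library (adjusted p = 0.118). *Zfp800* and *Zfp623* were not called without the second KO library (adjusted p = 0.113 and 0.0664), and *Zfp623* also not without the third WT library (0.0523). With chromosome medians subtracted *Zfp746* and *Zfp800* were at 0.39 and 0.46 and not called (adjusted p = 0.0716 and 0.0589).

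Of the genes that fell, *Zfp69*, a KRAB zinc finger gene linked to diabetes susceptibility in mice, changed most, from 1.51, 1.40 and 1.5 FPKM in WT to 0.49 and 0.64 FPKM in KO (log2 fold change -1.25 ± 0.14, adjusted p = 0.00147). It spans chr4:120930133-120951701 on the minus strand and passed the limit through its WT libraries. *Zfp39*, also with a KRAB-like box, went from 4.44, 4.77 and 4.75 FPKM to 2.31 and 2.01 FPKM (-1.08 ± 0.09, adjusted p = 0.000587). *Zfp428* was the most abundant of those that fell strongly, at 36.48, 36.03 and 34.32 FPKM in WT and 20.82 and 15.66 FPKM in KO (-0.98 ± 0.11, adjusted p = 0.00152). In all 3, KO libraries were well under the lowest WT library. *Zfp750*, a regulator of epidermal differentiation, went from 2.09, 2.32 and 2.51 FPKM to 1.34 and 1.39 FPKM. *Zfp652*, a transcriptional repressor, went from 21.4, 22.0 and 23.8 FPKM to 14.3 and 13.4 FPKM (-0.69 ± 0.06, adjusted p = 0.000693). *Zfp580*, *Zfp3* and *Zfp566* fell by 0.68, 0.66 and 0.65 on the log2 scale. *Zfp3*, whose KO mean of 0.965 FPKM is under the limit, was not called without the second KO library (adjusted p = 0.0573), and 13.2% of the 100-base words of *Zfp566* also occur in another gene. Of the 8 genes with the largest falls, *Zfp39*, *Zfp750*, *Zfp652* and *Zfp3* lie on chromosome 11. With the median of each chromosome subtracted, *Zfp750* was at -0.24 and *Zfp3* at -0.19, and neither was called (adjusted p = 0.123 and 0.318).

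**Figure D3:**
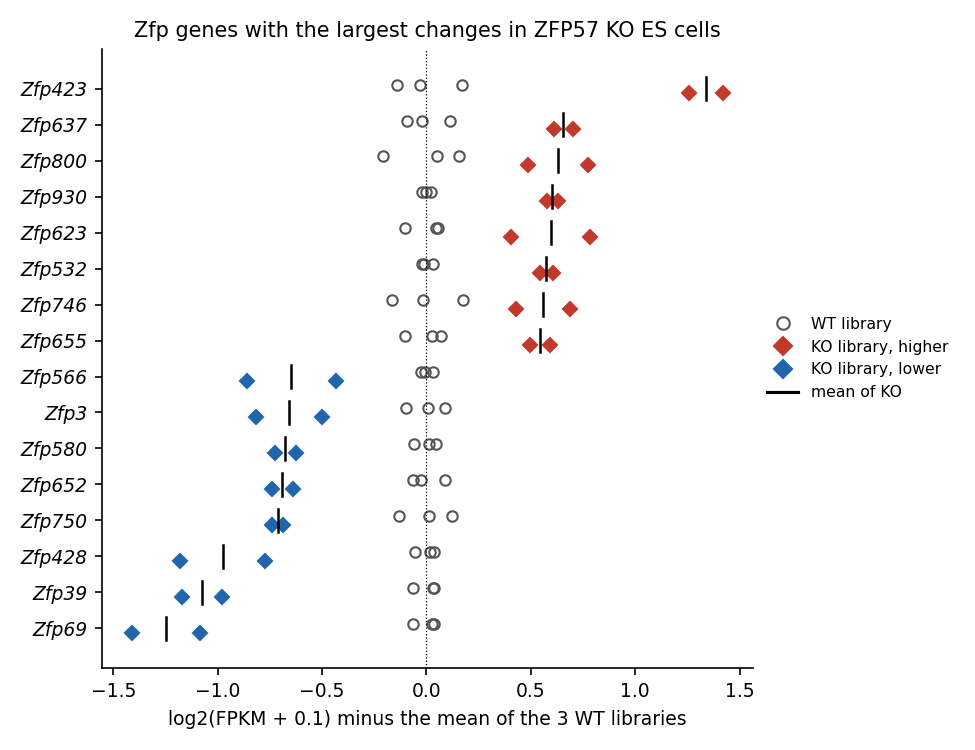
For the 8 Zfp genes with the largest rises and the 8 with the largest falls, each library is drawn as log2(FPKM + 0.1) minus the mean of the 3 WT libraries (x axis), WT as open circles and KO as diamonds, with a black bar at the KO mean. In each of the 16 genes the KO diamonds lie clear of the WT circles, because the choice of these genes required it. The largest changes are those of *Zfp423* (1.34) and *Zfp69* (-1.25).

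Position went with direction on chromosome 11. The 12 Zfp genes there were all lower in KO on average, 11 of them called, with a median log2 fold change of -0.54. Of all genes tested on chromosome 11, 825 of 1224 were called lower and the median was -0.47, so the Zfp genes there moved with their chromosome. *Zfp207*, which binds BUB3 at kinetochores, went from 81.3, 79.7 and 81.8 FPKM in WT to 67.4 and 62.2 FPKM in KO (-0.32 ± 0.04, adjusted p = 0.00274). *Zfp830*, a factor of pre-mRNA splicing and replication, went from 8.54, 8.23 and 9.06 FPKM to 5.85 and 5.38 FPKM (-0.61 ± 0.07, adjusted p = 0.00132). *Zfp62* (8.93, 10.01 and 10.26 against 8.42 and 8.55 FPKM) did not pass (adjusted p = 0.0716). With the median of each chromosome subtracted, 4 of the 12 were called, 2 higher and 2 lower, beside 36.2% of all genes tested under that setting. *Zfp207* turned to 0.15 (adjusted p = 0.0431), and *Zfp830* shrank to -0.14 and was not called (adjusted p = 0.152). Without the second KO library 7 of the 12 were called, all lower. The nearest peak to any of the 12 was 206336 bp away, at *Zfp692*. Without the genes of chromosome 11, 82 of 263 Zfp genes were called (31.2%), 48 higher and 34 lower, beside 38.4% of all 13345 genes tested on other chromosomes, 2710 higher and 2418 lower.

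The 12 Zfp genes of chromosome 6 leaned the other way, with 6 called, all of them higher, and a median log2 fold change of 0.33. Of all 679 genes tested on that chromosome 340 were called, 254 of them higher, with a median of 0.17, so the share called was about the same. *Zfp384*, a DNA-binding factor rearranged in leukaemia, was at 9.63, 9.59 and 9.36 FPKM in WT and 12.93 and 13.72 in KO (0.48 ± 0.05, adjusted p = 0.00099). *Zfp212* (2.95, 2.83 and 2.86 against 3.71 and 4.08 FPKM), *Zfp398*, *Zfp637*, *Zfp746* and *Zfp800* were the others called. With chromosome medians subtracted 2 of the 12 were called higher and 1 (*Zfp638*) lower, beside the same 36.2%, and without the second KO library 3 were called higher. *Zfp384*, *Zfp212* and *Zfp398* were named after their values were seen, as was *Zfp62* above. On chromosome 13, 3 of 30 Zfp genes were called, beside 213 of all 555 genes tested there. A cluster of 18 Zfp genes there, all with a KRAB-like box, had 1 call, lower.

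**Figure D4:**
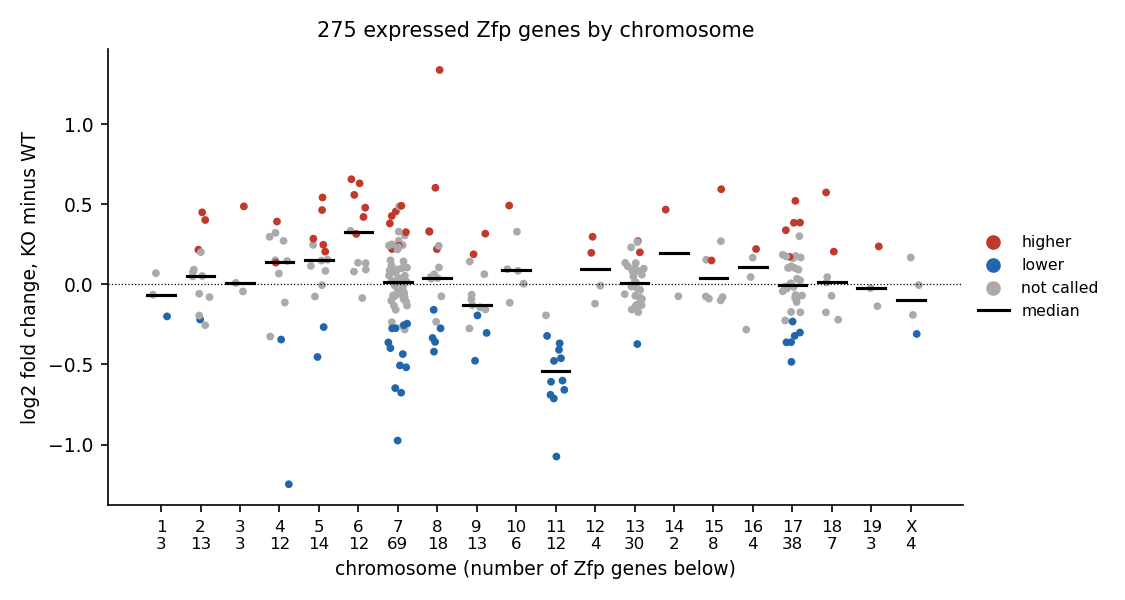
Log2 fold changes (KO minus WT, y axis) of the 275 Zfp genes are grouped by chromosome (x axis, with the number of genes), each point a gene and each black line a median. The 12 genes of chromosome 11 lie below 0, with 11 called lower, and the 6 genes called on chromosome 6 lie above 0.

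By structure, 47 of the 160 genes with a KRAB-like box were called (21 higher, 26 lower) and 46 of the 115 without one (27 higher, 19 lower), that is 29.4 and 40.0%, beside 41.1% of all genes tested. Their median log2 fold changes were 0.02 and 0.03. Genes with at least 15 finger patterns were called in 12 of 61 cases and those with 5 to 9 in 32 of 78, 22 of these higher. Level moved with these shares, since 14 of 62 genes at 1 to 2 FPKM were called and 26 of 50 at 10 FPKM or more. Over all genes tested these shares were 38.9% and 49.0%. The part of level in the shares by structure was not tested. Leaving out 1 library moved these counts, to 20 to 33 with a KRAB-like box (20 without the third WT and 21 without the second KO library), to 22 to 31 without one (22 without the second KO library) and to 6 to 11 for at least 15 finger patterns. In 26 genes at least 10% of the 100-base words also occur in another gene. Of these 4 were called, against 89 of the other 249 and 41.1% of all genes tested. In *Zfp600*, *Zfp708* and *Zfp935*, among 8 genes with at least 50% of such words, the FPKM depend on how shared reads were counted, which is not stated. In the second KO library 96 of the 160 genes with a KRAB-like box were lower than in the first, with a median difference of -0.04 on the log2 scale, beside 56 of the 115 without one and 7249 of all 14617 genes tested.

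Of the 15 genes with a ZFP57 peak, 4 were called between WT and KO, 3 higher and 1 lower, or 26.7%, beside 33.8% of the Zfp genes and 41.1% of all genes tested. Both KO libraries lay above all WT libraries in 6 of the 15 and below them in 4, a share near the 63.4% of all genes tested that lay apart in either direction. The second KO library read lower than the first in 14 of the 15, beside 152 of the 275 Zfp genes and 7249 of all 14617, and without the first KO library the 4 calls were 1 higher and 3 lower. *Zfp27*, with a peak of 361 bp in its last exon over fingers, rose from 2.32, 2.36 and 2.09 FPKM in WT to 3.34 and 2.93 FPKM in KO (0.46 ± 0.10, adjusted p = 0.0141, but 0.0730 without the first KO library). *Zfp933*, with a peak in intron 1 and the shared sequence above, rose from 3.35, 3.26 and 3.20 FPKM to 4.43 and 4.22 FPKM (0.39 ± 0.07, adjusted p = 0.0061). *Zfp277*, which takes part in Polycomb repression of *Cdkn2a* and has a peak in intron 2, was at 9.64, 10.28 and 9.98 FPKM in WT and 11.64 and 11.24 FPKM in KO. In these 3 genes both KO libraries lay above all WT libraries, and in all 93 called Zfp genes they lay apart. The call of *Zfp277* (0.20 ± 0.05, adjusted p = 0.0226) was lost in 4 of the 5 fits without 1 library and without the variance trend (adjusted p = 0.0545). *Zfp462*, with 2 coding peaks and an intronic one, is a 33-finger protein that restrains differentiation of ES cells. It fell from 18.1, 19.8 and 20.1 FPKM to 15.4 and 15.0 FPKM (-0.34 ± 0.06, adjusted p = 0.00527).

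The other 11 genes with a peak were not called. *Zfp787*, whose peak is printed above, was at 1.14, 1.18 and 1.36 FPKM in WT and 1.49 and 1.64 FPKM in KO (0.33 ± 0.12, adjusted p = 0.077). *Zfp729a* was at 4.92, 5.59 and 5.53 FPKM in WT and 6.41 and 6.16 in KO (adjusted p = 0.0511). The KO libraries of both lay above WT without passing. *Zfp729a* passed with a filter of 1 FPKM over all genes (adjusted p = 0.0427), median ratio scaling (0.0421) and robust variance estimates (0.0458), and *Zfp787* with quantile normalization (0.0469). *Zfp934*, with 2 intronic peaks, was at 2.05, 2.39 and 2.01 FPKM in WT and 3.17 and 2.12 FPKM in KO, where the second KO library lay within the WT range. Without that library it was called higher (0.54, adjusted p = 0.0467). *Zfp11*, with 5 hexanucleotides, was at 1.71, 2.05 and 1.77 FPKM in WT and 2.06 and 1.94 FPKM in KO (0.12 ± 0.11). *Zfp668* was at 2.1, 2.22 and 2.11 FPKM in WT and 2.20 and 2.12 FPKM in KO (0.01 ± 0.09). *Zfp13* and *Zfp180*, both with peaks in the last exon, were at 6.05 to 6.23 and 6.95 to 7.19 FPKM in WT and at 5.65 to 6.03 and 6.43 to 6.77 FPKM in KO (adjusted p = 0.401 and 0.221). The groups of *Zfp11* and *Zfp668* overlapped, and those of *Zfp13* and *Zfp180* lay apart by less than 1 FPKM. *Zfp109* and *Zfp935* differed by -0.10 ± 0.12 and 0.08 ± 0.06.

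*Zfp600* and *Zfp936* were the most abundant genes with a peak, and in both the 2 KO libraries stood apart. *Zfp600* was at 53.0, 55.0 and 54.4 FPKM in WT, 50.3 in the first KO library and 37.03 in the second (-0.33 ± 0.12, adjusted p = 0.0729). Without the first KO library it was called lower (-0.55, adjusted p = 0.00358). *Zfp936* was at 32.3, 31.8 and 32.8 FPKM in WT and at 35.3 and 28.6 FPKM in KO, on either side of the WT range, and was also called lower without the first KO library (-0.17, adjusted p = 0.0357). Of the 18 further genes with a peak within 20 kb, 2 were called higher and 2 lower, that is 22.2%, beside 41.1% of all genes tested. The nearest of these was *Zfp706*, 1328 bp from a peak, at 14.28, 14.65 and 14.04 FPKM in WT and 15.58 and 16.22 FPKM in KO (0.15 ± 0.04, adjusted p = 0.0372), named after its values were seen.

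**Figure D5:**
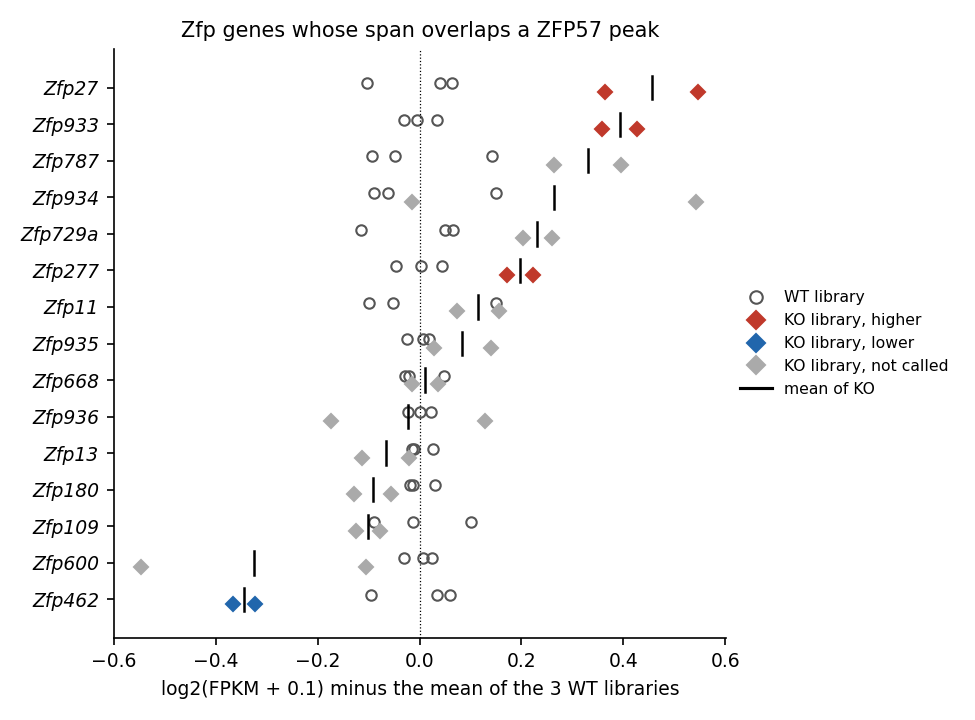
The 15 Zfp genes whose span overlaps a ZFP57 peak are shown by library as log2(FPKM + 0.1) minus the mean of the 3 WT libraries (x axis), with WT as open circles, KO as diamonds (red higher, blue lower, grey not called) and a black bar at the KO mean. 3 genes are called higher and *Zfp462* lower, and in *Zfp934*, *Zfp936* and *Zfp600* the 2 KO libraries are far apart.

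Of 8 Zfp genes with known roles in pluripotency, 1 was higher, 3 were lower and 4 did not pass. Called were 33.8% of the 275 Zfp genes and 41.1% of all genes tested. Both KO libraries lay apart from all WT libraries in 61.1% of the 275 and 63.4% of all genes tested. Each fit without 1 library left 1 or 2 calls among the 8. *Zfp42* (REX1), a marker of the naive state, was at 26.4, 25.7 and 25.9 FPKM in WT and 26.9 and 27.5 FPKM in KO (0.06 ± 0.04, adjusted p = 0.213). *Zfp281*, a factor in the exit from that state, was at 14.4 to 14.9 and at 15.4 and 15.5 FPKM. *Zfp462* fell, as given above. *Zfp143*, a promoter factor of ES cells, was at 9.93, 9.63 and 11 FPKM in WT and 8.54 and 8.59 FPKM in KO (-0.25 ± 0.07, adjusted p = 0.0298). *Zfp217*, a partner of the m6A machinery, was at 13.32, 12.78 and 13.20 FPKM in WT and 10.70 and 11.80 FPKM in KO (-0.22 ± 0.06, adjusted p = 0.0238). *Zfp322a*, an activator of *Pou5f1* and *Nanog*, rose from 4.4, 4.47 and 4.54 FPKM to 5.14 and 5.16 FPKM (0.20 ± 0.06, adjusted p = 0.0358). The groups of these 3 genes did not overlap, but *Zfp143* and *Zfp217* each lost the call in 4 of the 5 fits without 1 library, and *Zfp322a* in all 5 of them. Fitted without the variance trend, *Zfp143* and *Zfp217* were not called either (adjusted p = 0.0656 and 0.0606), nor was *Zfp322a* with chromosome medians subtracted (0.0833) or quantile normalization (0.0806). *Zfp296*, a KLF4 partner, and *Zfp609*, which binds Integrator, were not called (adjusted p = 0.453 and 0.0721).

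Of 4 KRAB zinc finger genes known to silence retroelements or an imprinted promoter, 1 was called, beside 33.8% of the 275 Zfp genes and 41.1% of all genes tested. *Zfp809*, which binds the primer binding site of murine leukaemia virus, fell from 18.8, 20.5 and 20.9 FPKM in WT to 15.94 and 12.99 FPKM in KO (-0.48 ± 0.09, adjusted p = 0.00955). Its highest KO library lay under its lowest WT library, and the groups lay apart in all 93 called Zfp genes. *Zfp568*, which represses a placental *Igf2* transcript, was at 24.4, 25.2 and 25.1 FPKM in WT and 25.1 and 25.6 FPKM in KO (0.02 ± 0.04). *Zfp819* was at 10.1 to 10.4 FPKM in WT and at 9.77 and 7.54 FPKM in KO, and passed without the first KO library (adjusted p = 0.00707) but not with it (0.0958). *Zfp708*, 99.96% of whose 100-base words are shared with a second gene model, differed by -0.12 ± 0.09.

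Of 10 Zfp genes that act on RNA or in translation, 3 passed, and of the 9 that meet the limit of 1 FPKM, 2, beside 33.8% of the 275 Zfp genes and 41.1% of all genes tested. *Zfp207* and *Zfp830* fell with chromosome 11, as above. *Zfp36* (tristetraprolin), which speeds decay of AU-rich mRNAs, rose from 0.69, 0.73 and 0.73 FPKM to 1.10 and 1.36 FPKM (0.70 ± 0.14, adjusted p = 0.00987), and its mean is under the limit of 1 FPKM. It was not called without the second KO library (adjusted p = 0.0532). *Zfp598*, the E3 ligase that senses collided ribosomes, was at 13.50 to 13.99 FPKM in WT and 13.81 and 14.04 FPKM in KO (0.03 ± 0.04, adjusted p = 0.664), and *Zfp622*, a factor of large ribosomal subunits, at 8.31 to 8.56 and 7.81 to 8.14 FPKM (-0.08 ± 0.05). *Zfp106*, an RNA-binding protein of neurons and muscle, was at 61.2 to 63.8 and 63.9 to 65.7 FPKM, and *Zfp638*, which recruits the HUSH complex to unintegrated retroviral DNA, at 40.1 to 43.3 and 39.1 to 39.6 FPKM. *Zfp326*, *Zfp346* and *Zfp385a* had differences from -0.17 to 0.15. *Zfp629*, one of 3 genes the study names for binding in the last exon, lay under the limit at 0.62 to 0.74 FPKM in WT and 0.79 to 0.89 FPKM in KO (adjusted p = 0.162).

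KRAB zinc finger proteins act through KAP1 and its partners, and 14 of 18 genes of this machinery were called, 6 higher and 8 lower, beside 41.1% of all genes tested. These are abundant genes, with a median of 45.9 FPKM, and of the 4115 genes tested that reach 10 FPKM, 49.0% were called. *Trim28* (KAP1) was at 157.2, 155.4 and 159.6 FPKM in WT and 142.4 and 140.2 FPKM in KO (-0.16 ± 0.03, adjusted p = 0.0139), and *Setdb1* was not called (-0.01 ± 0.05). Among HP1 genes, *Cbx1*, on chromosome 11, was lower (-0.59 ± 0.05) and *Cbx3* and *Cbx5* were higher (0.37 ± 0.04 and 0.47 ± 0.05). *Dnmt3a*, a de novo DNA methyltransferase, fell from 10.42, 9.21 and 10.99 FPKM to 3.25 and 2.84 FPKM (-1.71 ± 0.10, adjusted p = 0.000328), the largest change of the list. Without the third WT library 9 of the 18 were called. Among neighbouring zinc finger families at the same limit, 17 of 33 Zbtb genes were called (13 higher, 4 lower). So were 4 of 9 Zscan genes and 2 of 6 Zkscan genes. Of all genes tested at that limit 44.7% were called, 2409 higher and 2363 lower.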

How the data were processed

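The authors deposited gene expression of 3 WT and 2 KO samples as FPKM, rounded to 2 decimals and without counts, and ZFP57 peaks as intervals on mm10, called from uniquely aligned reads. The submitters' processing notes name STAR 2.5.2, BWA 0.6.2, MACS2 2.1.0, FastQC 0.11.5 and Trim Galore 0.2.7. The counting program, strand setting and annotation are not given in the sources used here, so overlapping and antisense genes cannot be told apart.

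A mean of 0.1 FPKM over the 5 libraries admitted a gene to the test, limma 3.58.1 (eBayes with trend, R 4.3.3) on log2 values after adding 0.1 FPKM, with Benjamini-Hochberg adjustment over all 14617 genes and a threshold of 0.05. RefSeq genes of GRCm38 gave positions, 273 genes by symbol and 2 by a synonym (*Zfp191* and *Zfp607*). Finger patterns, a KRAB-like box (at least 15 of 37 residues identical to the consensus of 217 windows of these proteins) and the hexanucleotide TGCCGC on both strands were found by script, and 100-base words shared with other GENCODE M21 transcripts were counted. Genes named were the 8 largest rises and falls among called genes with both KO libraries beyond all WT libraries. Also named were all genes with a peak, the 5 most abundant, those at the limit and the lists given. The members and lists were chosen with earlier results of these data known. KAP1, H3K9me3 and hybrid samples were not used here.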

Additional observations from a re-analysis of the deposited data

How the results depend on the processing

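Of 275 genes, 93 were called. Pseudocounts of 1 and 0.01, other filters, scaling, quantile normalization, chromosome medians and the variance models kept this within 1.5 times, and the median log2 fold change moved by less than the spread between WT libraries in every alternative run. An adjusted p under 0.01 left 33 calls, beside 22.5% of all genes tested, and a size of at least 1 left 3, beside 8.03%. A limit of 5 FPKM left 112 genes with 48 calls, beside 47.0% of all genes at that limit, and leaving out a library gave 43 to 62. A replicate block gave 29 calls among the 275 genes and 3010 (20.6%) among all genes. The block leaves 1 residual degree of freedom instead of 3. Deviations of libraries with the same replicate number correlated at -0.07 and -0.04. With 2 KO libraries these values cannot show whether the samples were paired. Genes with a peak numbered 15, 33 within 20 kb, 8 at the limit of 5 FPKM and 8 on coding sequence, and the last rule, like that without chromosome 11, was added after the data were seen. Of the 15, 4 were called, 1 with the replicate block, 2 at an adjusted p under 0.01, 0 at a size of at least 1, 3 without the trend, 5 with median ratio scaling, quantile normalization, a filter of 1 FPKM or robust variance estimates, and 3 to 4 without single libraries, where the balance turned from 3 higher and 1 lower to 1 higher and 3 lower without the first KO library. Of the 33, 8 were called (24.2%), beside 33.8% of the Zfp genes and 41.1% of all genes tested. Of the 18 KAP1 genes 14 were called, 9 without the trend (beside 36.5% of all genes), 4 with the replicate block (beside 20.6%), 8 at an adjusted p under 0.01, 1 at a size of at least 1 and 9 to 12 without single libraries. *Zfp207* turned from -0.32 to 0.15 with chromosome medians subtracted. Of the 27 named genes called, 17 kept the call in every fit without 1 library. FPKM without counts leave the depth, and so the error of genes near 1 FPKM, unknown.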
